A study of Mus musculus with 15 samples.

Results

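The genes described here are 10 transcription factors that set up and carry the skeletal muscle programme, taken by gene symbol from 56953 genes in all. They are the paired-box factors Pax3 and Pax7, the myogenic regulatory factors Myf5, Myod1, Myog and Myf6, the factors Mef2a, Mef2c and Mef2d, and the repressor Msc (musculin). Each symbol matched 1 gene in each of the 3 deposited tables, and all 10 are reported in all 15 libraries.

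The study sequenced RNA of wild-type mice of strain 129, 10 weeks old, from a stated total of 10 animals. Satellite cells, the stem cells that rebuild injured fibres (MuSCs), were taken by biopsy from mice 5, 6 and 11. The "after" libraries (3) came from MuSCs isolated outside the grafted area once each mouse had received its own MuSCs back, and the "before" libraries (3) came from MuSCs isolated ahead of the graft. Quadriceps femoris muscle gave 6 libraries of transplanted mice (4, 14, 94, 5, 6 and 11) and 3 of sham-operated mice (3, 192 and 12). No transgene or deletion is given for any group, and the treatment label of the shams also names transplantation, so shams were told by their titles. The titles number the mice, so libraries within a group were read as separate animals. The labels do not say whether the MuSCs were cultured before RNA extraction.

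Pax7 marks satellite cells, and Pax3 is its close relative in the embryonic muscle precursors and in a part of the adult satellite cells. When satellite cells leave quiescence, Myf5 and Myod1 commit them to the muscle lineage, Myog drives differentiation, and Myf6 (MRF4) is kept in mature fibres. These 4 are basic helix-loop-helix proteins that bind the E-box as dimers with E proteins, while the Mef2 proteins are MADS-box factors that bind an AT-rich site and act with them on contractile and metabolic genes.

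Promoter windows from RefSeq (GRCm38.p6, 250 bases before the annotated start and 50 from it on) were found for 6 of the 10 genes: Pax7, Myf5, Myog, Mef2a, Mef2c and Mef2d. The 4 shown here belong to the genes that the results turn on, and each is written 5′ to 3′ in the direction of the gene. Capitals mark matches on either strand to the E-box CANNTG, the MEF3 letters TCAGGTT, the AT-rich letters TATATTTA or the MEF2 consensus. Myog lies at chr1:134289754-134290053 on the plus strand, Mef2a at chr7:67372809-67373108 on the minus strand, Myf5 at chr10:107486085-107486384 on the minus strand and Pax7 at chr4:139832919-139833218 on the minus strand.
Myog: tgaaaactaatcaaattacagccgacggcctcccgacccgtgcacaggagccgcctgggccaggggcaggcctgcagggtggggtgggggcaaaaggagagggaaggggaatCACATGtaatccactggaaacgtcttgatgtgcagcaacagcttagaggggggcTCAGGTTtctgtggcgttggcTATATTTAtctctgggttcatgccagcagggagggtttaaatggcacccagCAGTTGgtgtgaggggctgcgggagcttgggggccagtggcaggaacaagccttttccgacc
Mef2a: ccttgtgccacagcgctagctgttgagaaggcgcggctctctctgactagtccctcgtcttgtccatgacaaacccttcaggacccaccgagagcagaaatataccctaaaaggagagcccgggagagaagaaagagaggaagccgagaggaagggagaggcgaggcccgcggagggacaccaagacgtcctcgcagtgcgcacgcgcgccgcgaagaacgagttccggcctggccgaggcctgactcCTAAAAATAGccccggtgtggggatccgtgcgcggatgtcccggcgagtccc
Myf5: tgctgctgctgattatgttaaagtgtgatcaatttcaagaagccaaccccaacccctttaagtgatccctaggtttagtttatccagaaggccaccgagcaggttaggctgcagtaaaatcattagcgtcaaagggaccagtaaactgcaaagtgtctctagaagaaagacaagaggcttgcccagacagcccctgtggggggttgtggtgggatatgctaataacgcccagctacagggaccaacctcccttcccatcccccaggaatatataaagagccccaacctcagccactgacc
Pax7: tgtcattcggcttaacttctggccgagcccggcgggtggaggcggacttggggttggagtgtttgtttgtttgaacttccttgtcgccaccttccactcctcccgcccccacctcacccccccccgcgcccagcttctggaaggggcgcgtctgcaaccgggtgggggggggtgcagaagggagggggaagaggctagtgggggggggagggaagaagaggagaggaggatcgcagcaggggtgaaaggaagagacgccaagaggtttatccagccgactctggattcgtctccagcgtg
The Myog window held an E-box with its first base at -138 and another at -12 (bases before the start), the MEF3 letters at -84 and the AT-rich letters at -63. The Mef2a window held 1 match to the MEF2 consensus, CTAAAAATAG, whose first base lay at -2. No searched motif was in the Myf5 or Pax7 window, which says only that these letters are not there. Of all 32851 windows in the table, 72.3% held an E-box, 4.07% the MEF3 letters, 1.17% the AT-rich letters and 3.19% the MEF2 consensus on either strand. No match overlapped another in the windows printed here. Their GC content was 58.3% (Myog), 62.3% (Mef2a), 49.7% (Myf5) and 63.7% (Pax7), against a median of 52.7% over all windows. Myf5 and Myf6 are neighbours on chromosome 10, 6718 bases apart in the GENCODE annotation of GRCm38.

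Libraries are named by group and mouse number, and they were not alike in ways that the groups do not explain. Total estimated counts ran from 17.09 to 22.98 M (mega) a library, with 17873 to 20284 genes detected. In the submitters' short names, after 5, before 5 and before 11 put the number first, while after 6, after 11 and before 6 put the letter first. The labels do not say what this name style stands for. The mean transcript length of a library, weighted by TPM (a level scaled for gene length and library total), was 1.24 to 1.264 kb in the number-first and 1.005 to 1.022 kb in the letter-first MuSC libraries. After 11 had the fewest genes detected and 1.2% of its estimated counts on mitochondrial genes, against 4.44% to 6.28% in the other MuSC libraries. In after 5 the summed TPM of 8 fibroadipogenic markers was 186.8, of which Smoc2 made 131.46, against 4.65 to 17.51 in the other MuSC libraries. The muscle tables also differ in style: the table with 2 shams holds transplanted 4, 14 and 94 with sham 3 and 192, and the table with 1 sham holds transplanted 5, 6 and 11 with sham 12. Against the label of male, Xist was at 2.63 to 84.1 TPM in 14 of 15 libraries, and 4 Y-linked genes summed to at most 0.31 TPM in all.

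Markers of the labelled cells were read from the same tables. The summed TPM of 10 MuSC markers was 393.4 to 553.7 after and 438.9 to 567.5 before, against 43.56 to 56.54 in transplanted and 51.81 to 60.83 in sham muscle. Calcr, a receptor of quiescent satellite cells, was at 0 in all after libraries and at 0 or 0.03 TPM before. In the MuSC libraries 10 mature myofibre markers summed to 1031 to 8390 TPM after and 4442 to 13200 TPM before, against at least 101800 TPM in muscle. Among markers of other cells in the MuSC libraries, Dcn and Dpp4 (fibroadipogenic), Emcn (endothelial) and Adgre1, C1qa and Ptprc (macrophage) were at 0 throughout. Others were not: the 6 smooth muscle and pericyte markers summed to 172.4 to 941.1 TPM after and 639.3 to 1060 TPM before, nearly all of it Acta2, and the 5 tenocyte markers to 49.18 to 73.44 TPM after and 43.96 to 74.62 TPM before, mostly Scx. Cd68 of the macrophage list had 2.21 to 4.85 TPM after and 2.02 to 5.14 TPM before. In muscle, all lists of other cells had every gene above 0 in at least 1 library of each group.

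The order of the 10 genes differed between MuSCs and muscle. MuSCs were led by Myod1 at 793 ± 228 TPM after and 758 ± 197 TPM before (SD, n = 3 each), above the range of every other member. Myog, Myf5 and Mef2a came next with overlapping ranges in both MuSC groups. At the low end stood Pax3 and, last, Msc, at 0.0167 TPM after and 0.16 TPM before. Muscle was led by Mef2c at 152 ± 44.5 TPM in transplanted mice (n = 6) and 180 ± 29.3 TPM in shams (n = 3), followed by Mef2d and Myf6, whose ranges overlapped. Myod1 and Myog lay lower in muscle, and Msc, Pax3, Myf5 and Pax7 each averaged under 1 TPM there. In bulk RNA fewer cells of a type and less RNA per cell cannot be told apart.

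**Figure D1:**
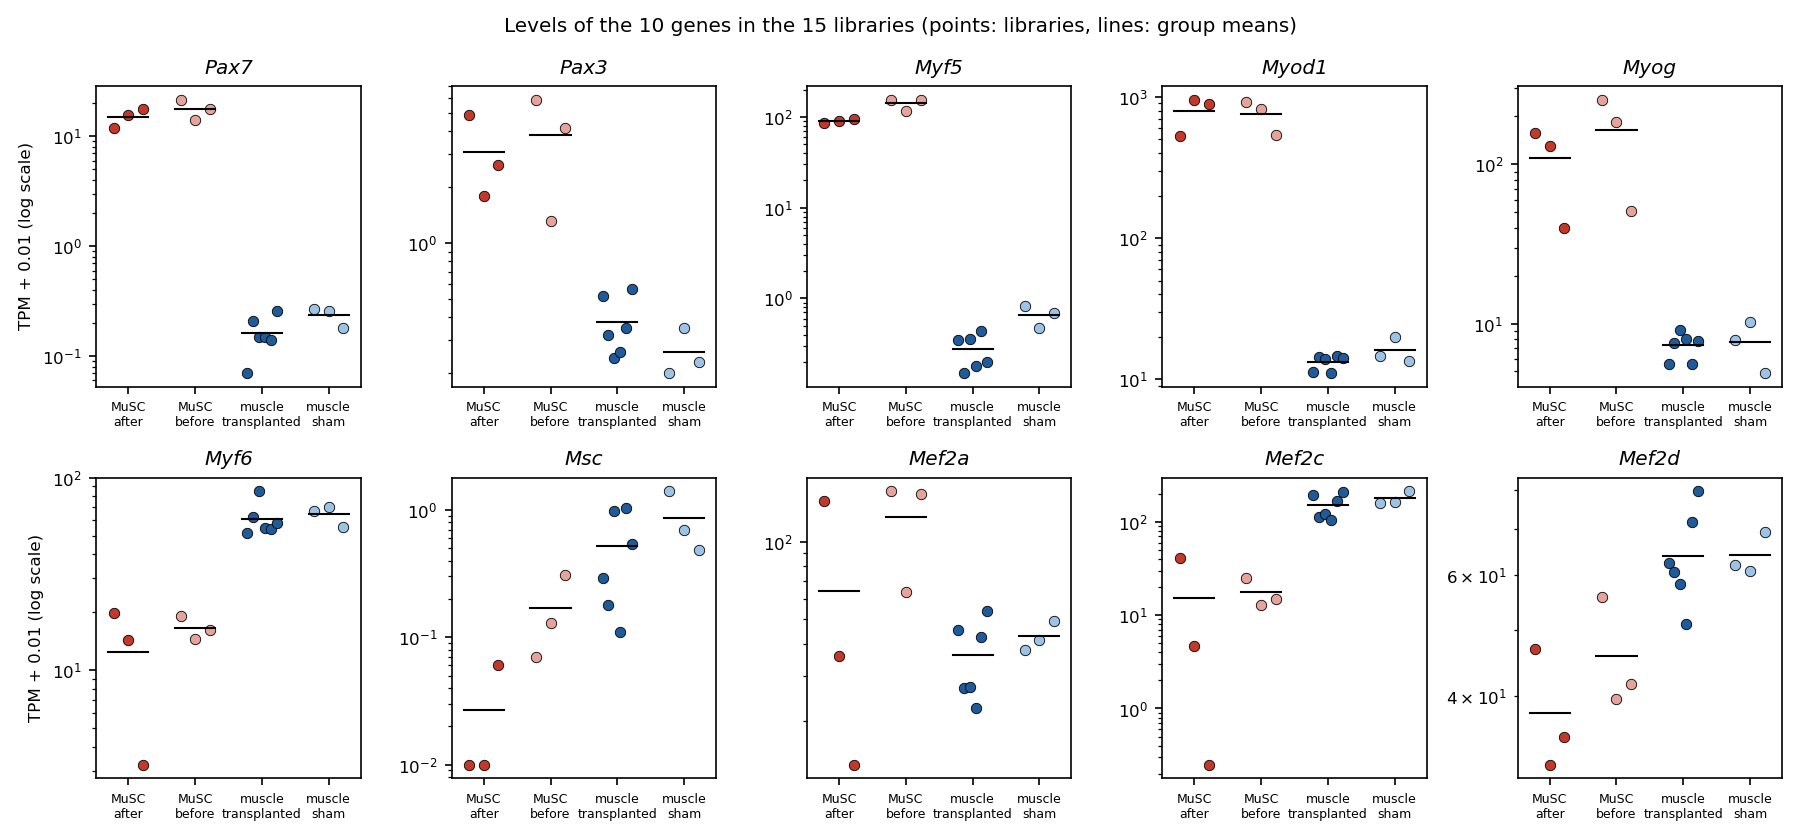
TPM + 0.01 of the 10 genes in each of the 15 libraries (log axis), with 1 point a library and a line at each group mean, grouped as MuSC after, MuSC before, muscle transplanted and muscle sham. Myod1, Myog, Myf5, Pax7 and Pax3 lie higher in every MuSC library than in any muscle library, and Myf6 and Mef2c lie lower.

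Between MuSCs before the graft and sham muscle, the mean TPM of Myf5 was 217-fold, of Pax7 78.4-fold, of Myod1 47.7-fold, of Myog 21.4-fold and of Pax3 15.2-fold higher in MuSCs. Mef2a was 2.92-fold higher in MuSCs. In the other direction, sham muscle had 10.3-fold more Mef2c, 5.31-fold more Msc, 3.88-fold more Myf6 and 1.4-fold more Mef2d. The Msc fold rests on few estimated counts, 29 over the sham libraries and 8.7 over the before libraries, 6.7 of these in before 11. No test is given for these folds, since the cell source and the deposited table cannot be told apart. The genes lying 6718 bases apart on chromosome 10 thus had opposite levels: Myf6 over Myf5 was 0.0339 to 0.230 in after libraries and 0.106 to 0.125 in before libraries, but 126 to 448 in transplanted and 81.8 to 153 in sham muscle.

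Within the myogenic regulatory factors, Myod1 made up 77.9 ± 10.0% of their summed TPM after and 70.5 ± 2.11% before. In muscle Myf6 made up 74.4 ± 2.26% in transplanted mice and 72.9 ± 2.74% in shams, and Myod1 16.4 ± 2.33% and 17.9 ± 1.81% in the same groups. Within the Mef2 factors, Mef2a held 46.4 ± 17.4% after and 64.6 ± 9.21% before. Mef2c held 59.9 ± 2.71% in transplanted and 62.6 ± 1.5% in sham muscle. Myod1 thus led its family in every MuSC library and Myf6 in every muscle library. In after 11, unlike the other MuSC libraries, Mef2d held 71.8% and Mef2c 0.494% of the Mef2 TPM.

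**Figure D2:**
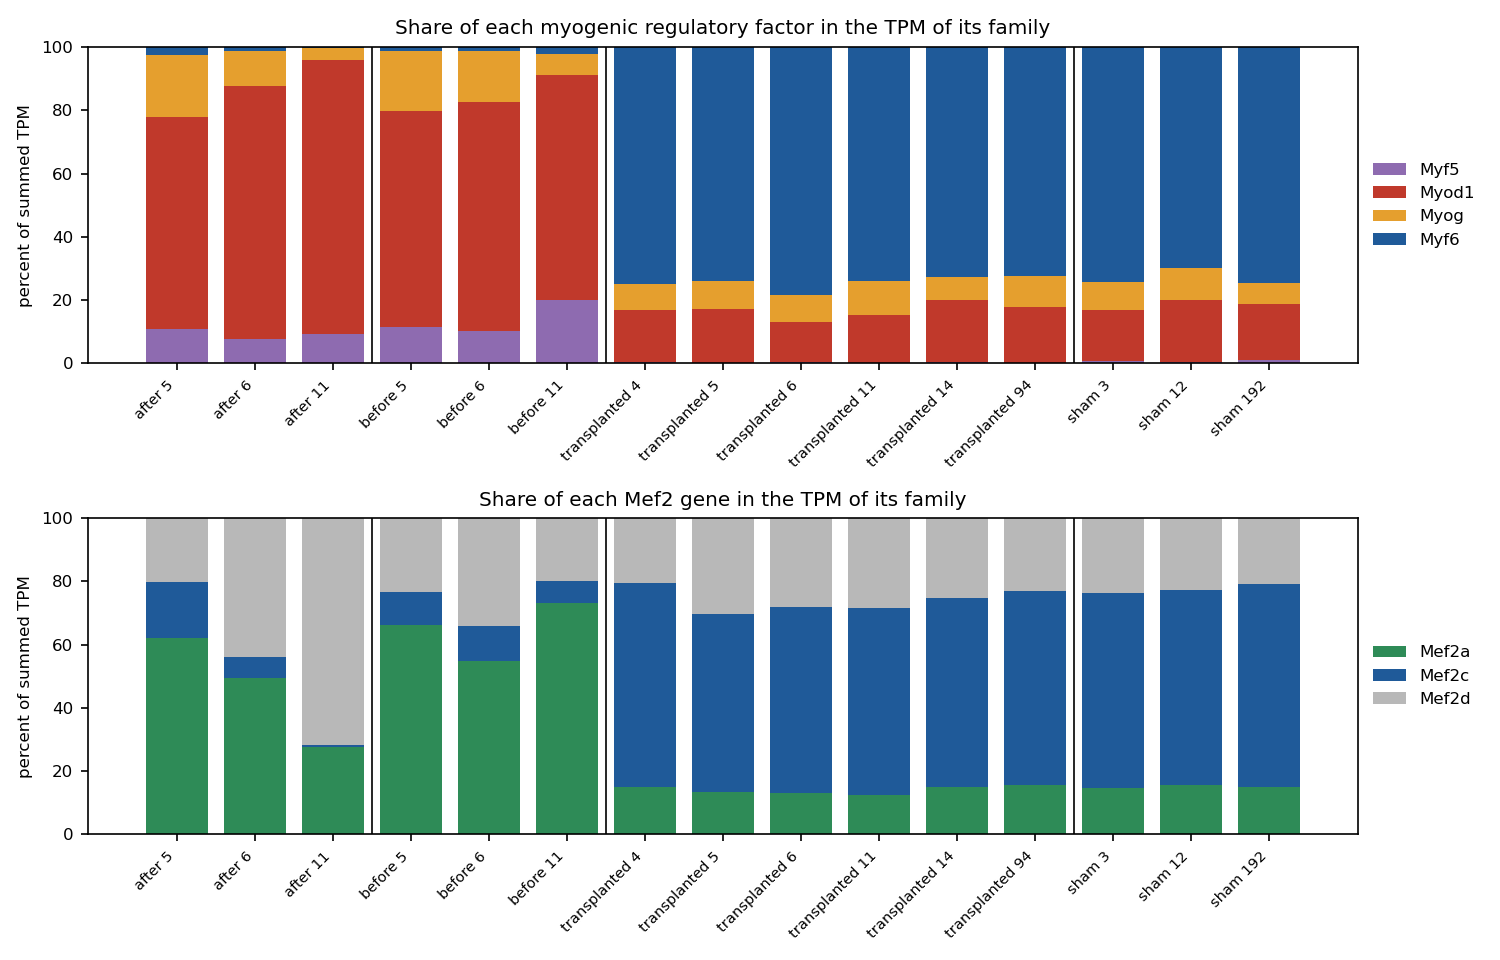
Share of the summed TPM of the 4 myogenic regulatory factors and of the 3 Mef2 factors (percent of each family's TPM) taken by each gene, with 1 bar a library, in the order MuSC after, MuSC before, muscle transplanted and muscle sham. Myod1 takes 66.9% to 86.5% in MuSCs and Myf6 69.7% to 78.5% in muscle.

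The question of the first comparison was how MuSCs outside the graft differ from MuSCs taken before it. None of the 9 members tested passed an adjusted p of 0.05 (edgeR's quasi-likelihood test, Benjamini-Hochberg adjustment), and none had an unadjusted p under that value. Over all 13512 genes tested the share called was 0%, and 2.26% had an unadjusted p under 0.05 (0.71% lower, 1.55% higher). Of the 9, 2 had a fold change above 0 and 7 below, with a median log2 fold change of -0.30, where the median of all genes tested was 0.02 and 48.6% were below 0. Msc had too few counts to be tested.

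Pax7 had 11.8 TPM in after 5, 15.7 in after 6 and 17.9 in after 11, against 21.6 in before 5, 14.1 in before 6 and 17.8 in before 11. The groups overlapped, and after 5 was the lowest library. Its log2 fold change was 0.07 ± 0.36 (SE, edgeR adjusted p = 0.951). Pax3 had 4.87, 1.78 and 2.63 TPM in after 5, 6 and 11, against 5.90, 1.31 and 4.16 TPM in before 5, 6 and 11. Pax3 followed the name style: the number-first libraries, at 4.16 to 5.90 TPM, lay above the letter-first ones, at 1.31 to 2.63 TPM. So did 46.8% of the genes tested, higher in the number-first libraries without overlap. Between the groups the log2 fold change of Pax3 was -0.04 ± 0.48 (edgeR adjusted p = 0.982). Pax7 exceeded Pax3 in each MuSC library, by 2.43-fold to 8.82-fold after and 3.66-fold to 10.8-fold before.

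Of the 9 members tested, Myf5 alone had TPM that did not overlap between the MuSC groups; Msc, which was not tested, did not overlap either. It had 86.5 TPM in after 5, 90.2 in after 6 and 95.3 in after 11, against 155 in before 5, 116 in before 6 and 153 in before 11. All after libraries thus lay under all before libraries, as they did for 2.78% of the genes tested. No tested member was higher after without overlap, as 2.69% of the genes tested were. Each mouse's after value was 55.7% (mouse 5), 77.7% (mouse 6) and 62.4% (mouse 11) of its before value. On counts scaled by TMM, with 114, 182 and 198 CPM (counts at a common library total) in after 5, 6 and 11 and 207, 228 and 210 CPM in before 5, 6 and 11, the log2 fold change was -0.39 ± 0.29 (edgeR adjusted p = 0.873). After 5 was the library farthest below in CPM, and without it the log2 fold change was -0.20. In TPM the median gene itself moved by -0.14 in log2.

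Myod1 had 532, 958 and 888 TPM in after 5, 6 and 11, against 918, 819 and 538 TPM in before 5, 6 and 11. The groups overlapped and no direction was shared: the after value was 58.0% of the before value in mouse 5, 117% in mouse 6 and 165% in mouse 11. The log2 fold change was 0.32 ± 0.49 (edgeR adjusted p = 0.873), and it was -0.13 with the name style as a term. As single libraries were left out it ran from 0.06 without before 11 to 0.65 without after 5. Myod1 over Pax7 was 45, 61 and 49.6 in after 5, 6 and 11 and 42.6, 57.9 and 30.2 in before 5, 6 and 11, so Myod1 exceeded Pax7 at least 30.2-fold in every MuSC library.

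Myog, the factor of terminal differentiation, had 157, 131 and 40.0 TPM in after 5, 6 and 11, against 254, 184 and 50.7 TPM in before 5, 6 and 11. In TPM it was lower after in each of the 3 mice, but not in CPM, where mouse 11 had 56.7 after and 47.5 before. Mouse 11 had the lowest value at both times. The log2 fold change was -0.48 ± 0.66 (edgeR adjusted p = 0.873), with -0.93 without before 11 and -0.13 without after 11. Myog over Myod1 put the mice in the same order at both times: 0.295, 0.137 and 0.0451 in after 5, 6 and 11 and 0.277, 0.224 and 0.0943 in before 5, 6 and 11. The after 11 and before 11 libraries have different name styles. Myf6 had 19.9, 14.3 and 3.23 TPM in after 5, 6 and 11, against 19.1, 14.5 and 16.1 TPM in before 5, 6 and 11 (log2 fold change -0.30 ± 0.53, edgeR adjusted p = 0.876). After 11 was the library apart, and without it the log2 fold change was 0.12.

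**Figure D3:**
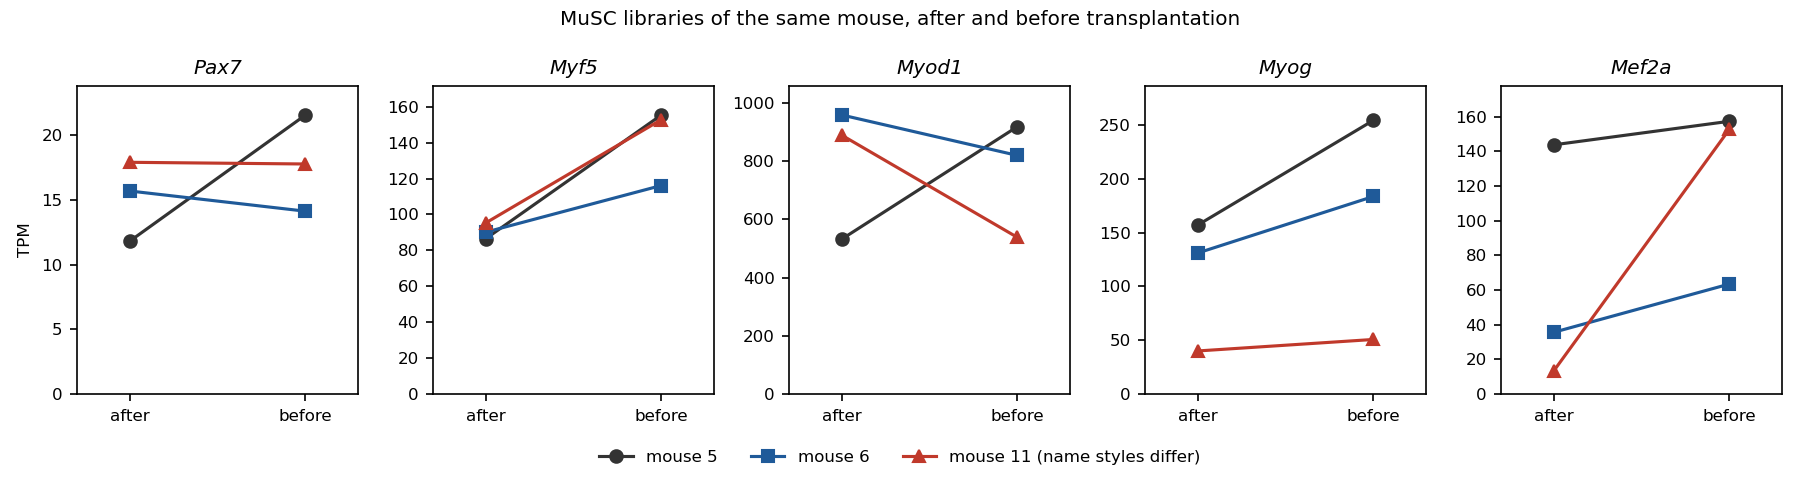
TPM of Pax7, Myf5, Myod1, Myog and Mef2a in each of the 3 mice, with the after library left of the before library and a line joining the libraries of a mouse. Myf5, Myog and Mef2a are lower after in 3 of 3 mice, while Pax7 and Myod1 are lower after in mouse 5 and higher in mice 6 and 11.

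In TPM, lower after in 3 of 3 mice held for Myf5, Myog, Mef2a, Mef2d and Msc, of which Msc rests on 1 count against 9. In CPM it held for Myf5 and Mef2a, while mouse 11 went the other way for Myog (56.7 CPM after, 47.5 CPM before) and Mef2d (149 CPM after, 102 CPM before). The background is wide in TPM, as 14.3% of the genes tested were lower in all 3 mice and 7.93% were higher. No such share was counted in CPM, so what held in CPM has no background beside it.

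Mef2a had 144, 35.7 and 13.5 TPM in after 5, 6 and 11, against 157, 63.5 and 153 TPM in before 5, 6 and 11. The after value was 91.4% of the before value in mouse 5 and 56.2% in mouse 6, where both libraries have 1 name style, and 8.83% in mouse 11, where they differ in style. The log2 fold change was -0.91 ± 0.65 (edgeR adjusted p = 0.873), with -1.87 without after 5 and -0.47 without after 11. By style, Mef2a was at 151 ± 6.90 TPM in the 3 number-first and 37.5 ± 25.0 TPM in the 3 letter-first libraries, with no overlap. That difference, with the group as a term, was 1.33 ± 0.42 in log2 (edgeR adjusted p = 0.0716), and 46.8% of the genes tested were likewise higher without overlap in the number-first libraries. In TPM no member was lower there without overlap, as 8.76% of the genes tested were. By style 3 of the 9 members (Mef2a, Myod1 and Pax3) had an unadjusted p under 0.05, against 41.2% of all genes, and the share past an adjusted p of 0.05 was 0%. Myod1 differed the other way, with a log2 value of -1.07 ± 0.31 for number-first over letter-first libraries (edgeR adjusted p = 0.063).

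Mef2c varied widely between MuSC libraries, with 41.0, 4.69 and 0.24 TPM in after 5, 6 and 11, against 25.1, 12.8 and 14.8 TPM in before 5, 6 and 11. The after libraries spanned the whole before range, from 23 counts in after 11 to 2710 counts in after 5. The log2 fold change was -0.37 ± 1.19 (edgeR adjusted p = 0.924), and it ran from -2.51 without after 5 to 0.19 without after 11. Mef2d was steadier at 46.9, 31.8 and 34.9 TPM in after 5, 6 and 11, against 55.8, 39.7 and 41.7 TPM in before 5, 6 and 11. In TPM its after value was 80.2% to 84.1% of the before value in each mouse. On scaled counts the log2 fold change was 0.00 ± 0.27 (edgeR adjusted p = 1).

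Msc, a repressor that competes with the myogenic regulatory factors for E-boxes, was near 0 in MuSCs. It had 1 count over the 3 after libraries and 9 over the 3 before libraries after rounding, a ratio of 0.109 per sequenced count with an exact 95% interval of 0.00248 to 0.784 that covers counting error only. Most of the before counts came from before 11, at 0.30 TPM.

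In MuSCs the libraries with the longer mean transcript length are the number-first ones. Between them and the letter-first ones Mef2a and Mef2c did not overlap, and Pax3, Myf6 and Mef2d did not either. Of the genes tested, 46.8% were likewise higher without overlap in the number-first libraries. The 3 MuSC libraries of 1.24 kb and above had 144 to 157 TPM of Mef2a. Those of 1.022 kb and under had 13.5 to 63.5 TPM. Mef2c was at 14.8 to 41.0 TPM and at 0.24 to 12.8 TPM in the same libraries. In muscle the order was looser. The library of the shortest mean, transplanted 11 at 1.029 kb, had the lowest Mef2a (22.4 TPM) and Mef2c (106 TPM), and transplanted 94 at 1.198 kb had the highest Mef2a (53.8 TPM). But sham 12, with the longest mean of 1.206 kb, had 41.2 TPM of Mef2a and 165 TPM of Mef2c. Sham 3, at 1.087 kb, had 37.9 and 161 TPM, more than the longer transplanted 5 and 6. With that length as a term in the fit, a choice made after seeing the data, the log2 fold change of Mef2a was -0.82 in MuSCs and 0.05 in muscle, and that of Mef2c -0.86 in MuSCs and 0.03 in muscle.

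**Figure D4:**
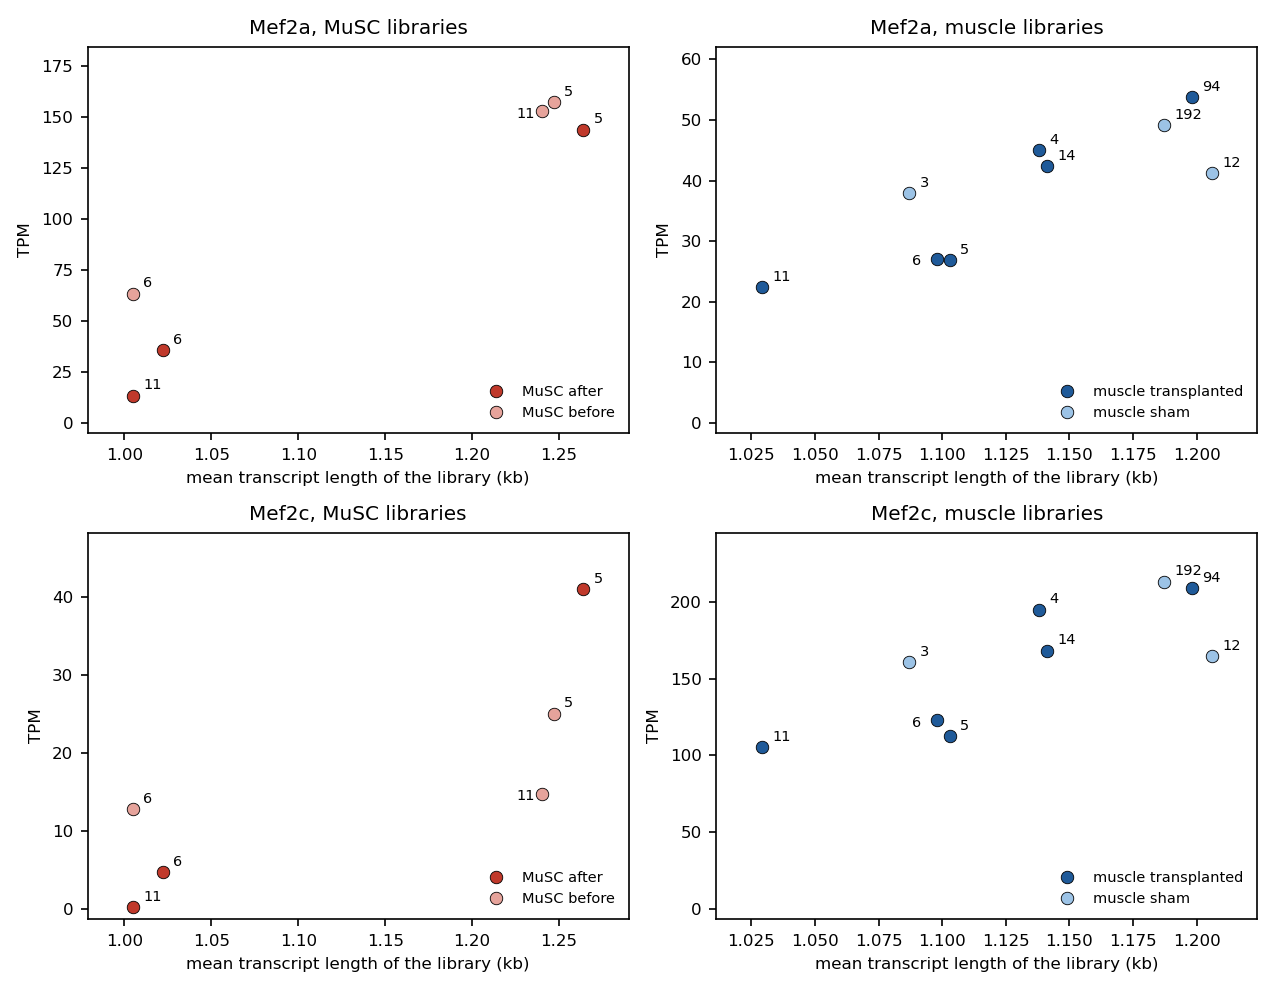
TPM of Mef2a (top) and Mef2c (bottom) against the mean transcript length of each library in kb, MuSC libraries on the left and muscle libraries on the right, with the mouse number beside each point. In MuSCs the 3 libraries with the longer mean have more Mef2a than the other 3, and each set holds libraries of both groups; in muscle the points scatter more, with sham 3 above and sham 12 below libraries of similar length.

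The other question was how quadriceps of transplanted mice differs from that of shams. All 10 members were tested in muscle and none passed an adjusted p of 0.05, with 0% of 14375 genes called. An unadjusted p under 0.05 was found for Myf5 and Mef2d, 2 of 10, against 7.08% of the genes tested. Myf5 was lower, as 4.08% of genes were at that p, and Mef2d was higher, as 3.01% were. The members' median log2 fold change was -0.03, with 4 above 0 and 6 below, and that of all genes was 0.00 with 50.1% below 0.

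Myf5 was low in muscle in both groups. It had 0.34, 0.43 and 0.19 TPM in transplanted 4, 14 and 94, against 0.81 and 0.68 TPM in sham 3 and 192 of the same table. In the other table it had 0.14, 0.35 and 0.17 TPM in transplanted 5, 6 and 11, against 0.46 TPM in sham 12. No transplanted library reached a sham in TPM, as was so for 2.71% of the genes tested. No member was higher in all transplanted than in all sham libraries, as 0.0904% of the genes tested were. These levels rest on 5 to 15 counts a transplanted library and 13 to 24 a sham, and in CPM the groups overlapped, with 0.67 in transplanted 14 and 0.624 in sham 12. The log2 fold change was -1.0 ± 0.41 (edgeR adjusted p = 0.686), and it was -1.18 within the table of 2 shams and -0.67 within the table of 1 sham.

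Pax7 had 0.06 to 0.25 TPM (median 0.14) in transplanted and 0.17, 0.25 and 0.26 TPM in sham muscle, or 7 to 23 counts against 15 to 24. The groups overlapped, with a log2 fold change of -0.46 ± 0.39 (edgeR adjusted p = 0.816). Pax3 had 0.23 to 0.56 TPM (median 0.325) in transplanted muscle, against 0.19, 0.22 and 0.34 TPM in sham 3, 192 and 12. Its highest values were in transplanted 4 and 94, and its log2 fold change was 0.68 ± 0.34 (edgeR adjusted p = 0.717), but -0.02 within the table with 1 sham. Pax7 over Pax3 was 0.118 to 0.645 in transplanted and 0.735 to 1.37 in sham muscle, groups that did not overlap in TPM. That ratio was picked out after its values were seen, and it has no test.

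Myod1 had 11.0 to 14.5 TPM (median 14.0) in transplanted muscle, against 14.6, 13.4 and 19.9 TPM in sham 3, 192 and 12, with a log2 fold change of -0.13 ± 0.11 (edgeR adjusted p = 0.81). Myog had 5.56 to 9.14 TPM (median 7.68) in transplanted muscle, against 7.85, 4.87 and 10.2 TPM in the same shams, with a log2 fold change of 0.02 ± 0.17 (edgeR adjusted p = 0.987). Both overlapped between the groups, and sham 12 was the highest library for each. Myf6, the regulatory factor of mature fibres, had 51.6 to 85.0 TPM (median 56.2) in transplanted muscle, against 67.2, 55.6 and 70.4 TPM in sham 3, 192 and 12, with a log2 fold change of 0.02 ± 0.14 (edgeR adjusted p = 0.986).

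Mef2c had 106 to 209 TPM (median 146) in transplanted muscle, against 161, 213 and 165 TPM in sham 3, 192 and 12. Among the transplanted libraries the spread followed the table: transplanted 5, 6 and 11 had 113, 123 and 106 TPM. Transplanted 4, 14 and 94 had 195, 168 and 209 TPM. The shams did not split this way. Sham 12, in the table of transplanted 5, 6 and 11, lay between sham 3 and sham 192 of the other table. With the table as a term the log2 fold change was -0.02 ± 0.11 (edgeR adjusted p = 0.973). Mef2a showed the same split among the transplanted libraries only. It had 26.8, 27.1 and 22.4 TPM in transplanted 5, 6 and 11 and 45, 42.4 and 53.8 TPM in transplanted 4, 14 and 94. Sham 3, 192 and 12 had 37.9, 49.2 and 41.2 TPM of Mef2a. Its log2 fold change was -0.05 ± 0.11 (edgeR adjusted p = 0.943). Within the table of 1 sham the log2 fold change was -0.13 for Mef2c and -0.29 for Mef2a. Within the other table it was 0.05 and 0.11. Sham 12, the one sham in the table of transplanted 5, 6 and 11, had a mean transcript length of 1.206 kb, against 1.029 to 1.103 kb in those 3 libraries.

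Mef2d had 51.0 to 79.5 TPM (median 61.6) in transplanted muscle, against 62.2, 69.3 and 60.9 TPM in sham 3, 192 and 12. In TPM the means were level at 64.0 ± 10.2 and 64.1 ± 4.56, and on scaled counts they were 212 ± 10.7 CPM in transplanted mice and 191 ± 19.9 CPM in shams. The log2 fold change of 0.18 ± 0.08 (edgeR adjusted p = 0.701) is from these scaled counts, and in TPM the median gene moved by -0.11 in log2. Msc had 0.10 to 1.02 TPM (median 0.405) in transplanted muscle, against 1.39, 0.47 and 0.69 TPM in sham 3, 192 and 12, and its log2 fold change was -0.22 ± 0.62 (edgeR adjusted p = 0.953). Mef2a, Mef2d and Msc each overlap a gene on the opposite strand (Lysmd4, 1700113A16Rik and Gm9947), so their counts are uncertain where strand was not kept.

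**Figure D5:**
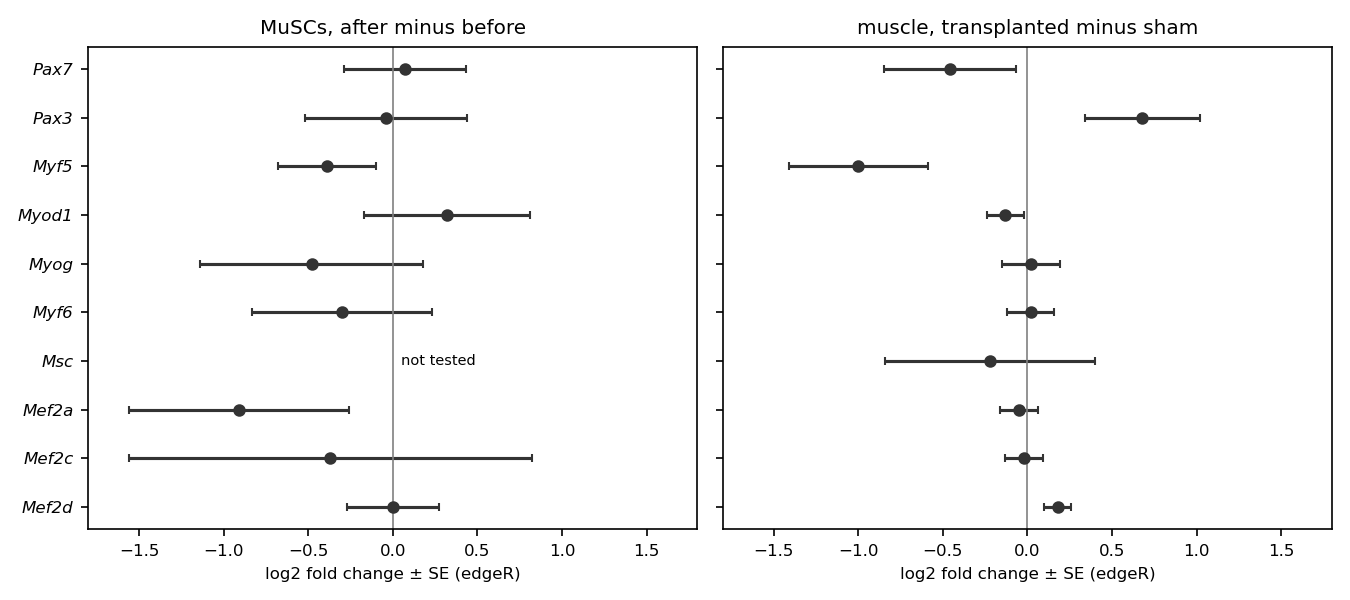
Log2 fold change with its standard error for each member, after over before in MuSCs and transplanted over sham in muscle, from the edgeR fits. Standard errors reach 1.19 for Mef2c in MuSCs and 0.08 to 0.62 in muscle, and no member passes an adjusted p of 0.05.

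The partners and targets of these factors were read from 4 lists, and no gene of any list passed an adjusted p of 0.05 in either comparison. The lists are not wholly separate from the members or from each other. Mef2c, a member, is among the early targets, Lmod3 is in both target lists, and Hdac9 is among the cofactors and the MEF2 targets. Of 20 basic helix-loop-helix partners and inhibitors, 19 were tested in MuSCs, 10 above 0 and 9 below, with a median log2 fold change of 0.09, which was -0.13 without after 6 and -0.01 without before 11. Id1 and Id3, which keep the E proteins from their partners, were abundant, with 460 ± 139 and 499 ± 205 TPM after and 404 ± 101 and 471 ± 89.2 TPM before. The E protein Tcf3 had 61.2 ± 14.2 TPM after and 45 ± 5.46 TPM before. The smallest unadjusted p values in that list were for Heyl, a Notch target (-2.14 ± 0.70), and Twist1 (1.36 ± 0.73). Heyl was low, at 0.07 to 0.23 TPM after and 0.43 to 0.83 TPM before. Twist1 overlapped between the groups, at 4.7 to 36 TPM after and 5.32 to 13.2 TPM before.

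Chromatin cofactors of MyoD and MEF2 gave 11 of 18 above 0 and 7 below (median 0.11, but 0.03 without after 5 and -0.11 with limma on TPM), led by the class IIa deacetylase Hdac7 (0.72 ± 0.27) and the histone methyltransferase Ehmt2 (0.85 ± 0.49). Early targets of MyoD and myogenin gave 8 above 0 and 15 below of 23 tested (median -0.18, but -0.41 without before 11 and 0.02 without before 6), with Musk, the kinase of the neuromuscular synapse, at -0.70 ± 0.36 and the RNA-binding factor Rbm24 at -0.47 ± 0.34. Among these, the embryonic receptor subunit Chrng had 189 ± 48.7 TPM after and 236 ± 24.9 TPM before, and the fusion factor Mymk 176 ± 34.9 and 162 ± 78.2 TPM in the same groups. Both were below 0.3 TPM on average in transplanted and in sham muscle.

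MEF2 targets of mature fibres were below 0 in 15 of 15 tested in MuSCs, with a median log2 fold change of -0.72, where 48.6% of all genes were below 0. The lowest unadjusted p values were those of Xirp1, an actin-binding repeat protein (-0.59 ± 0.25), and the glucose transporter gene Slc2a4 (-1.35 ± 0.69). This median ran from -1.41 (without after 5) to -0.21 (without after 11) as single libraries were left out. It was -0.65 with the name style as a term. Within the number-first libraries, where after 5 is the only after library, it was 0.29. Within the letter-first libraries, where before 6 is the only before library, it was -1.68. The mature myofibre markers, which share Ckm with this list, summed to 8390, 5580 and 1031 TPM in after 5, 6 and 11, against 9409, 13200 and 4442 TPM in before 5, 6 and 11, and their part in the result was not tested.

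In muscle the same MEF2 targets gave 14 above 0 and 1 below (median 0.16, against 0.00 for all genes), with Slc2a4 at 0.28 ± 0.09 and Hdac9 at -0.52 ± 0.14. That median was 0.01 without sham 12, which leaves the 2-sham table alone to give it, 0.37 within the 1-sham table and 0.02 with limma on TPM. Hdac9, a deacetylase that MEF2 itself induces and that represses it in turn, had 2.04 ± 0.490 TPM in transplanted and 3.36 ± 0.285 TPM in sham muscle (edgeR adjusted p = 0.686). The other lists gave 5 above 0 and 12 below of 17 partners and inhibitors, 9 and 9 of 18 cofactors and 12 and 9 of 21 early targets. The median of the early targets was 0.10, but 0.01 without sham 12 and -0.05 with limma on TPM. Genes named there by the smallest unadjusted p were Tcf4 (-0.16 ± 0.11), Heyl (-0.26 ± 0.19), Carm1 (0.17 ± 0.08), Des (0.20 ± 0.10) and Cdkn1a (0.34 ± 0.21). Mef2b, the other Mef2 gene, had 0.05 TPM after and 0.0833 TPM before, with 0.198 TPM in transplanted and 0.187 TPM in sham muscle, too low to test.

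Genes whose levels ran most like a member's were found by the root mean square difference of centred log2(TPM + 0.1) over the 15 libraries, where 0 is a perfect match. For Myod1 they were Septin9 (0.241), Src (0.246) and Tubb5 (0.271), and for Pax7 Septin9 (0.293), Dctd (0.327) and Actn1 (0.344). Septin9, a cytoskeletal filament gene, had 212 TPM after and 183 TPM before, against 3.40 TPM in transplanted and 4.43 TPM in sham muscle. Myog was matched less closely, by Frmpd1 (0.472), Lef1 (0.507) and Porcn (0.526). For Myf6 the nearest were Smim13 (0.324), Zdhhc14 (0.331) and Bnip3 (0.348), all higher in muscle than in MuSCs. The 15 libraries share the split between MuSCs and muscle, and the likeness is given as a description.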

How the data were processed

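The authors deposited 3 tables, 1 of MuSC and 2 of muscle libraries, with estimated counts, TPM and FPKM per gene, per the file headers. Between 7.4% and 8.82% of the deposited estimated counts were not whole, and all were rounded for testing. The authors' FPKM values were used only for the mean transcript length of a library, the inverse of summed FPKM over summed TPM. GRCm38 and mm10 are named in the submitters' processing notes. No source used here gives the aligner, quantifier or strand setting. Only 1446 of 52029 genes shared with GENCODE of GRCm38 had the same coordinates, so no coordinates of the files are printed. Another 3 columns belonged to a library that matched no labels and were not used. Groups came from the titles.

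Tests used edgeR 4.0.16 in R 4.3.3 (quasi-likelihood, filterByExpr with a minimum count of 10, TMM, Benjamini-Hochberg over all genes tested, 2-sided, threshold 0.05). The MuSC fit had 3 after and 3 before libraries with no covariate, and the muscle fit had 6 transplanted and 3 sham libraries plus a term for the table. The SE is the size of the fold change over the root of F. DESeq2 1.42.0, limma 3.58.1 on log2(TPM + 1), other scaling, filters, terms and left-out libraries were alternatives, and the scripts were checked on simulated data. The simulated data held no effect of name style or table, so the check does not show what the fits could find in these libraries. All 10 members are named whatever their values, and of each list the 2 genes with the smallest p where none passed. The members and lists were chosen with earlier results of these data known.

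The mouse numbers pair the MuSC libraries, since the labels call the graft autologous. Over 13672 genes, each library's deviation from its group mean had a correlation within the mouse of 0.31 (mouse 5), 0.38 (mouse 6) and -0.46 (mouse 11). Between mice it was 0.53 (after 5, before 11) and 0.61 (after 11, before 6), both pairs of 1 name style. No libraries looked like duplicates: chi-square over its degrees of freedom was 18.25 to 505.63.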

Additional observations from a re-analysis of the deposited data

Results flagged for a closer look

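Myf6 stood apart in transplanted 6, at 85.0 TPM, from the other transplanted muscle libraries, at 51.6 to 62.7 TPM, against 55.6 to 70.4 TPM in shams. The gap to the nearest library was 0.667 of the group's whole range, over the critical value of 0.625 for 6 libraries. It was the 1 value picked out of 26 looked at, and chance picks about 1 group in 20. Without transplanted 6 the muscle log2 fold change of Myf6 was -0.06.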

How the results depend on the processing

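No member passed an adjusted p of 0.05 in any alternative run that gave it one. In muscle DESeq2 gave no adjusted p for Pax3, Pax7, Myf5 and Msc. Msc was not tested in muscle without transplanted 6 or without transplanted 14, and in MuSCs it was tested only with no filter. The number of genes called in MuSCs, 0 in the report, was 16 with DESeq2, 43 within the number-first libraries and 4 without both after 5 and after 11, and 0 to 0 as single libraries were left out. In muscle it was 0 in the report, 7 with DESeq2, 12 with no filter, 1 within the 2-sham table, 41 within the 1-sham table, 1 with mean transcript length as a term, and 0 to 4 as single libraries were left out (2 without transplanted 94, 4 without sham 192). With the mouse as a replicate block 0 MuSC genes were called and 214 had an unadjusted p under 0.05, against 305 without it. The block changed no call, but it moved some fold changes. In log2, Mef2c was -1.82 with the block and -0.37 without it, Mef2a -1.24 and -0.91, and Myf6 -0.53 and -0.30. Myog was -0.31 with the block and -0.48 without it. Myf5 (-0.43 with the block), Myod1 (0.26) and Mef2d (-0.01) moved less. The terms for mean transcript length and the fit without both after 5 and after 11 were chosen after seeing the data. Fold changes that turned round follow, in log2. In MuSCs Pax3 was 0.06 with the replicate block, 0.38 with name style as a term, 0.79 within the letter-first libraries and 0.32 with the length term. Pax7 was -0.22 with limma, -0.01 with the replicate block, -0.22 with name style, -0.75 within the number-first libraries and -0.19 with the length term. Myod1 was -0.13 with name style, -0.48 within number-first and -0.06 with the length term. Myog was 0.02 and Myf6 0.14 within number-first, and 0.05 and 0.20 without both after 5 and after 11. Mef2c was 0.92 within number-first. In muscle Pax3 was -0.02 within the 1-sham table. Myog was -0.10 with limma, -0.03 within the 2-sham table and -0.03 with the length term, and Myf6 was -0.13, -0.17 and -0.04 under the same settings. Mef2a was 0.11 within the 2-sham table and 0.05 with the length term, and Mef2c 0.05 and 0.03. As single libraries were left out, MuSC values ran from -0.36 to 0.32 (Pax3), -0.16 to 0.35 (Pax7), 0.06 to 0.65 (Myod1), -0.93 to -0.13 (Myog), -0.63 to 0.12 (Myf6), -2.51 to 0.19 (Mef2c) and -0.16 to 0.10 (Mef2d). Muscle values ran from -0.14 to 0.24 (Myog), -0.16 to 0.18 (Myf6), -0.15 to 0.12 (Mef2a), -0.11 to 0.05 (Mef2c) and -0.42 to 0.11 (Msc). The cause was not tested. Myf5 kept its sign throughout, at -0.86 to -0.20 in MuSCs and -1.18 to -0.35 in muscle, as did Mef2a in MuSCs (-1.87 to -0.13). Depth limits Myf5, Pax7, Pax3 and Msc in muscle, with at most 31 counts a library, and Msc in MuSCs.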

Other observations

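Of the basic helix-loop-helix inhibitors, Id2 had 171 ± 24.3 TPM after and 192 ± 48.6 TPM before, but 1.41 ± 0.592 TPM in transplanted and 1.73 ± 0.650 TPM in sham muscle. Bhlhe40, a repressor of the circadian clock, ran the other way. It had 15.1 ± 5.46 TPM after and 14.4 ± 6.6 TPM before, against 43.5 ± 16.8 TPM in transplanted and 55.3 ± 1.02 TPM in sham muscle. The cofactor Vgll2, which is muscle-enriched, had 7.55 ± 5.81 TPM after and 8.00 ± 4.19 TPM before, against 60.5 ± 20.5 TPM in transplanted and 51.6 ± 18.1 TPM in sham muscle. Source and deposited table cannot be told apart in these levels, and none of the 3 genes passed an adjusted p of 0.05 in either comparison by edgeR.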
